A study of Drosophila melanogaster with 34 samples.

Results

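The numbered piRNA clusters are the 91 rows of the Drosophila melanogaster small RNA tables whose class is piRNA_dm6 and whose name is the word cluster with a number. They were chosen by name only, out of 93 piRNA_dm6 features (the other 2 are named flam and 42AB) and 48984 features in all. A piRNA cluster is a stretch of genome rich in transposon remnants that is transcribed into long precursors and cut into PIWI-interacting RNAs (piRNAs), small RNAs that guide PIWI-clade Argonaute proteins to complementary transposon transcripts. Some clusters are transcribed from 1 strand and others from both, and in the fly gonad the set of active clusters differs between germ cells and the somatic cells around them. The genes piwi and aubergine (aub) each encode such a protein: Piwi acts mainly in the nucleus, where it directs silencing of transcription, and Aub in the cytoplasm of germ cells, where it cuts transposon RNA. The numbers are the names in the authors' annotation. Positions of the clusters on dm6 and the direction counted as sense were not given in the sources used here, so sense and antisense below mean the sense table and the antisense table, and no cluster sequence is shown.

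Small RNA was sequenced from sperm of piwi mutant males (3 libraries), of aub mutant males (3 libraries) and of wild type (WT) males (3 libraries). RNA pulled down with Piwi after UV crosslinking (PIWI IP, 4 libraries) and total RNA (2 of 3 labelled samples) came from seminal vesicle, the organ that stores sperm, of WT males, and 1 library each was used for WT testis groups T1, T2 and T3 of 2 labelled samples each. The labels give neither the mutant alleles, nor whether mutants carried 1 or 2 mutant copies, nor the age of the males, nor what T1, T2 and T3 stand for. No label says that libraries of a group came from separate males or cultures, so the p-values measure the spread between these libraries, which may be technical.

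The libraries held 2363275 to 18728872 assigned counts, both strands together. rRNA took 62.6% to 87.3% of them, and cluster92 alone 0.608% to 6.12%. Transcript counts of piwi and of aub lay between 0 and 2 in each of the 9 sperm libraries, whatever the genotype, so they could not serve as a check of the mutant labels. A limit of 3 counts corresponded to 0.160 to 1.27 CPM (counts scaled to a fixed library total). In these bulk samples, fewer cells of a type and less RNA per cell cannot be told apart.

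Of the 91 clusters, 90 had counts and 87 had at least 20 counts over all 18 libraries. The exception without a count was cluster71. In sperm, 62 clusters of piwi males, 61 of aub males and 56 of WT males reached 20 counts summed over the 3 libraries. In single testis libraries 75, 75 and 70 clusters reached 20 counts in T1, T2 and T3. PIWI IP reached this level for 81 clusters and seminal vesicle total RNA for 42.

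One cluster held most of the counts. cluster92 took 97.1% ± 0.82 of all cluster counts in piwi sperm, 96.1% ± 0.979 in aub sperm and 95.7% ± 1.66 in WT sperm (SD, n = 3 each). In testis it took 74.8%, 82.4% and 94.1% in T1, T2 and T3. It took 87.6% ± 6.13 in PIWI IP (SD, n = 4) and 98.6% and 98.3% in the 2 total RNA libraries. Nearly every count lay in the sense table: the antisense table held 0 to 16 cluster92 counts per library. Without cluster positions, whether the reads counted for cluster92 are piRNAs could not be checked. Per library, cluster92 was 2.51%, 2.00% and 1.57% of all assigned counts in piwi sperm, 1.71%, 1.71% and 1.15% in aub sperm, and 1.99%, 1.32% and 1.47% in WT sperm, and the 3 genotypes overlapped. The fitted difference was 0.41 ± 0.48 (log2, SE) for piwi against WT sperm (edgeR adjusted p = 0.825) and -0.30 ± 0.48 for aub against WT sperm (adjusted p = 0.842). In testis, cluster92 was higher, at 5.75%, 6.04% and 6.12% of assigned counts in T1, T2 and T3.

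All other numbered clusters together were a small part of sperm RNA. They came to 526, 637 and 601 CPM in piwi sperm, 632, 542 and 599 CPM in aub sperm, and 528, 824 and 699 CPM in WT sperm. The genotypes overlapped here too. In testis they reached 19380 CPM in T1, 12910 CPM in T2 and 3812 CPM in T3, so even the lowest testis library lay above every sperm library. PIWI IP held 714, 1099, 1354 and 1348 CPM and total RNA 230.5 and 260.4 CPM, and the lowest PIWI IP library lay above both total RNA libraries.

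**Figure D1:**
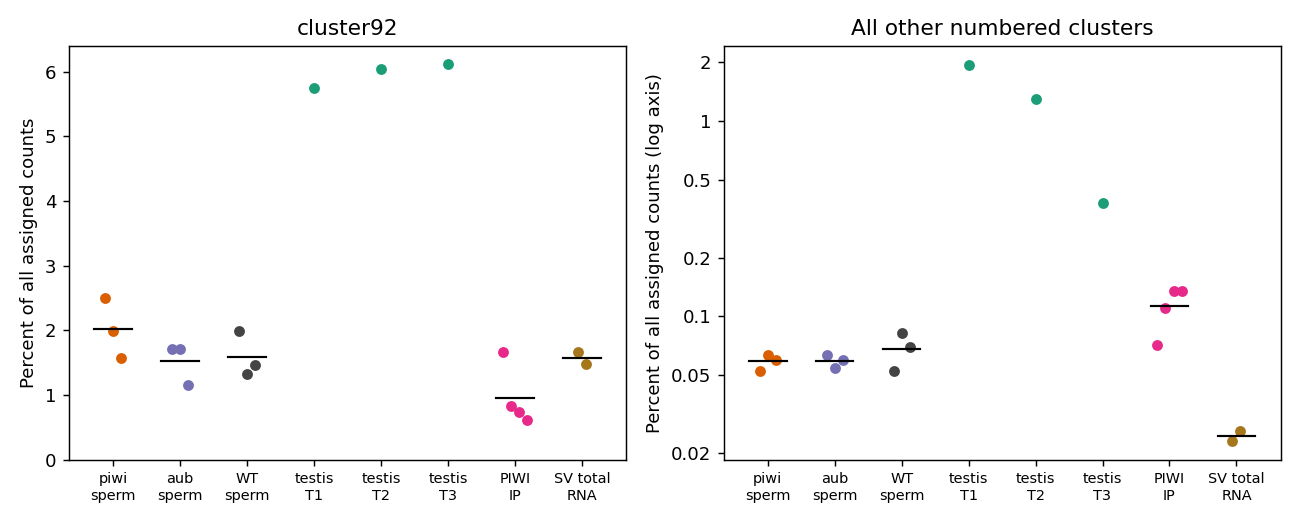
Share of all assigned counts (percent) taken by cluster92 (left, axis from 0) and by all other numbered clusters (right, log axis) in each library; points are libraries and black lines are group means where a group has more than 1 library. cluster92 lies between 5.75% and 6.12% in the 3 testis libraries and at most at 2.51% elsewhere, while the other clusters fall over T1, T2 and T3.

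Without cluster92 the leading clusters differed between sperm and testis. In piwi sperm, cluster22 held 15.5% ± 0.29 and cluster79 11.7% ± 2.24 of the remaining cluster counts. In aub sperm, cluster22 held 20.4% ± 3.31 and cluster79 16.7% ± 1.97. In WT sperm, cluster22 held 14.2% ± 2.17 and cluster79 13.6% ± 2.76 (SD, n = 3 each). Both were minor in testis, with 0.384%, 0.719% and 3.39% for cluster22 and 0.197%, 0.291% and 0.897% for cluster79 in T1, T2 and T3. In testis cluster9 led with 26.4%, 27.6% and 25.0%, followed by cluster103 with 13.6%, 15.1% and 13.5% and cluster5 with 12.7%, 12.1% and 11.2%. These 3 clusters held 52.7%, 54.8% and 49.6% of the counts without cluster92 in T1, T2 and T3. In sperm the third place by mean share differed by genotype: cluster3 in piwi, cluster39 in aub and cluster93 in WT. The place of cluster93 rests on WT replicates 2 and 3, as its shares were 1.76%, 13.4% and 11.75%.

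PIWI IP was the most even of the seminal vesicle groups. The clusters needed to reach 50% of the counts without cluster92 numbered 12 in PIWI IP and 3 in total RNA. cluster79 held 8.58% ± 1.38 in PIWI IP (SD, n = 4) and 26.6% and 27.0% in the total RNA libraries. cluster22 held 5.61% ± 0.494 in PIWI IP and 17.6% and 20.9% in total RNA. cluster93 overlapped between them, with 5.25%, 9.50%, 9.68% and 4.30% in PIWI IP and 6.76% and 7.77% in total RNA. cluster55, cluster20 and cluster135 held 4.09% ± 0.435, 4.09% ± 0.214 and 4.55% ± 1.06 in PIWI IP, against 0.57% ± 0.156, 1.15% ± 0.288 and 1.12% ± 0.368 in total RNA (SD, n = 2).

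The effect of piwi mutation on sperm was tested on 73 cluster rows (41 sense, 32 antisense) that passed the filter on low counts, in an edgeR quasi-likelihood fit over all rows. A single row was called, 1.37% of the cluster rows, against 0.898% of all 10804 rows (0.342% higher, 0.555% lower). cluster3 sense was higher in piwi sperm, with counts of 275, 500 and 208 in piwi sperm and 91, 20 and 65 in WT sperm. Scaled by TMM library sizes this gave 54.1, 46.1 and 44.5 CPM in piwi sperm, against 18.8, 5.36 and 7.93 CPM in WT sperm. Each piwi library lay above each WT library. The log2 fold change was 2.17 ± 0.39 (SE), with adjusted p = 0.0201. The call ended when piwi replicate 1, 2 or 3 or WT replicate 2 or 3 was left out (adjusted p = 0.0624 to 0.101), with log2 fold changes of 1.87 to 2.22.

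The antisense row of cluster3 measured 8.26, 4.33 and 3.21 CPM in piwi sperm and 2.06, 1.88 and 0.61 CPM in WT sperm. Its log2 fold change of 1.89 ± 0.49 did not pass (edgeR adjusted p = 0.116), although the groups did not overlap. Both strands together, cluster3 took on average 8.51% of the counts without cluster92 in piwi sperm, 3.75% in aub sperm and 1.74% in WT sperm. The other rows scattered around 0: 33 cluster rows had a positive and 40 a negative estimate, with a median log2 fold change of -0.01 beside 0.01 over all rows. cluster22 sense (98.5 ± 19.5 CPM in piwi sperm and 97.3 ± 9.31 CPM in WT sperm) and cluster79 antisense (63.1 ± 7.31 CPM in piwi sperm and 85.1 ± 8.63 CPM in WT sperm) gave edgeR adjusted p = 0.989 and 0.511.

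In aub sperm the called row was cluster93 antisense, again 1.37% of the 73 cluster rows, against 1.84% of all rows (0.907% higher, 0.935% lower). It fell to 8, 8 and 27 counts in aub sperm, against 60, 365 and 596 counts in WT sperm. Scaled, it measured 0.948, 0.733 and 2.74 CPM in aub sperm and 12.4, 97.9 and 72.7 CPM in WT sperm. No aub library overlapped the WT libraries, but WT replicate 1 lay far below the other 2. The log2 fold change was -5.35 ± 0.85, with adjusted p = 0.0249 in edgeR. It missed the threshold without any single aub library or without WT replicate 2 or 3 (adjusted p = 0.0597 to 0.115), and also with total counts in place of TMM factors (adjusted p = 0.108) or with no filter (adjusted p = 0.0941). Piwi sperm lay between the 2 other genotypes, at 14.7, 22.8 and 13.7 CPM, and overlapped WT sperm through WT replicate 1.

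A further 3 rows were near the threshold and lower in aub sperm. cluster9 sense measured 17.0, 14.7 and 14.8 CPM in aub sperm and 56.9, 39.4 and 25.5 CPM in WT sperm (log2 fold change -1.39 ± 0.36, adjusted p = 0.0781). For cluster103 antisense the values were 11.6, 10.4 and 8.82 CPM in aub sperm and 36.7, 29.2 and 17.2 CPM in WT sperm (-1.43 ± 0.39, adjusted p = 0.0882). cluster41 antisense had 3.56, 1.65 and 2.23 CPM in aub sperm and 7.63, 7.24 and 4.51 CPM in WT sperm (-1.37 ± 0.39, adjusted p = 0.0973). In all 3 rows the groups did not overlap, and none passed the edgeR test. These rows were picked after their values were seen, and how many other rows also separate was not counted. For 3 against 3 libraries the smallest p of an exact permutation test is 0.1, so lack of overlap is weak evidence. Counts of cluster9 sense over cluster103 antisense kept a ratio of 1.09 to 1.68 in sperm and 1.69 to 1.79 in testis. In PIWI IP the ratio reached 2.71. Whether these 2 rows share reads was not tested, so they may not be independent. The clusters leaned to lower values in aub sperm: 19 rows had a positive and 54 a negative estimate, with a median log2 fold change of -0.26 beside 0.02 over all rows. The rows of flam and 42AB, 4 in all, gave no call, with a median of -0.25. Of 248 complex repeat rows other than rRNA, 92 were positive and 156 negative, with a median of -0.27. All 22 Su(Ste) rows were negative, with a median of -1.14. The lean was therefore not particular to the clusters. A list of 14 testis germline miRNAs summed to 51.3 to 123 CPM in aub sperm and 5.54 to 31.2 CPM in WT sperm, without overlap. A list of 7 somatic miRNAs was lower without overlap, at 2780 to 3650 CPM in aub sperm and 4090 to 6240 CPM in WT sperm. Accessory gland and seminal fluid transcripts, at 258 to 518 CPM in aub sperm and 105 to 384 CPM in WT sperm, overlapped. The part of these in the cluster values was not tested.

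**Figure D2:**
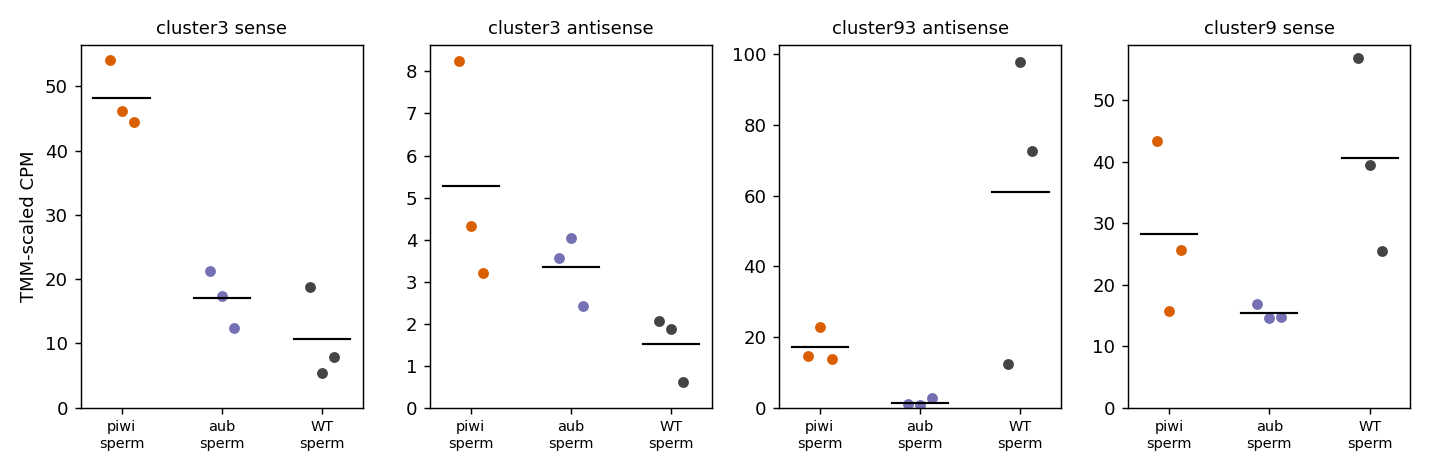
TMM-scaled CPM of 4 cluster rows in sperm of piwi, aub and WT males; points are the 3 libraries of a genotype, black lines their means, and each axis starts at 0. cluster3 sense lies at 44.5 to 54.1 CPM in piwi and at 5.36 to 18.8 in WT sperm; cluster93 antisense lies at 0.733 to 2.74 CPM in aub and at 12.4 to 97.9 in WT sperm.

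Between the mutants no cluster row passed in edgeR (0 of 73), against 0.518% of all rows (0.278% higher, 0.241% lower). Of the 73 rows 17 had an unadjusted p under 0.05, beside 1074 of all 10804 rows. DESeq2 called 2 cluster rows and 125 of all 48033 rows. cluster3 sense, at 21.3, 17.4 and 12.4 CPM in aub sperm, lay below the 44.5 to 54.1 CPM of piwi sperm (log2 fold change -1.50 ± 0.37, edgeR adjusted p = 0.123). cluster93 antisense gave -3.53 ± 0.80 for aub against piwi sperm (adjusted p = 0.15), without overlap. The 3 genotype comparisons share libraries and are not independent of one another.

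The balance of strands in sperm was lower in WT than in either mutant when all clusters but cluster92 were summed. The sense table held 55.2%, 56.7% and 58.3% of these counts in piwi sperm, 56.1%, 58.7% and 53.8% in aub sperm, and 51.0%, 47.4% and 46.5% in WT sperm. Neither mutant overlapped WT. Without cluster3 and cluster93, a choice made after their values were seen, the shares were 53.5%, 55.6% and 56.7% in piwi sperm, 54.9%, 57.8% and 53.1% in aub sperm, and 50.7%, 54.5% and 52.0% in WT sperm, and the genotypes overlapped.

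Strand ratios of single clusters were tested with limma on log2((sense + 0.5)/(antisense + 0.5)) in 37 clusters with enough counts. For piwi against WT sperm 0 clusters were called in limma, against 0.222% of all features (0.0985% higher, 0.123% lower), and no other tool was run. Of the 37 clusters 8 had an unadjusted p under 0.05, and the share of all features at that cut was not counted. In aub sperm 1 cluster was called, against 1.4% of all features (1.31% higher, 0.0985% lower). cluster93 was 20.0%, 20.0% and 6.90% sense in aub sperm and 3.23%, 0.273% and 0.501% sense in WT sperm, a difference of 4.32 ± 0.83 on the log2 ratio (adjusted p = 0.0129). That ratio rests on 2, 2 and 2 sense counts beside 8, 8 and 27 antisense counts in aub sperm. WT sperm had 2, 1 and 3 sense counts, so the call restates the fall of the antisense row. The call was lost without WT replicate 2 (adjusted p = 0.11) and when each library was centred on its median (adjusted p = 0.247). Between aub and piwi sperm limma called 0 of 37, against 0.0246% of all features, and no other tool was run. An unadjusted p under 0.05 was found in 5 of the 37, with no count over all features.

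Sperm is made in the testis, and the clusters were compared between WT sperm and WT testis in 155 rows that passed the filter. In sperm 137 rows were lower and 1 was higher. Of all 13723 rows, 57.2% were called, 30.7% lower and 26.5% higher. The median log2 fold change of the cluster rows was -4.61, beside 0.21 over all rows. The 4 rows of flam and 42AB were all lower too, with a median of -5.23. Of 356 complex repeat rows other than rRNA, 312 were called lower and 3 higher, with a median of -4.28. Testis gave 1 library a group, so its spread was taken to equal that among sperm libraries. Testis, unlike sperm, was also prepared in a reduced reaction volume, and this cannot be told apart from the tissue. With T1, T2 and T3 as 1 group, whose differences then count as spread, 104 of 117 cluster rows were lower, beside 2802 of all 8291 rows in that fit.

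The clusters that led in testis were among the rows lower in sperm. cluster9 sense had 51.6, 31.9 and 23.8 scaled CPM in WT sperm and 4756, 3209 and 1157 in testis T1, T2 and T3 (log2 fold change -6.19 ± 0.68, edgeR adjusted p = 3.2e-05). cluster103 antisense had 33.3, 23.7 and 16.1 CPM in WT sperm and 2663, 1898 and 679 CPM in testis (-5.95 ± 0.64). cluster5 sense had 27.3, 19.3 and 11.7 CPM in WT sperm and 2239, 1389 and 513 CPM in testis (-5.91 ± 0.65). For each, the lowest testis library lay above the highest sperm library. cluster18 sense (-6.23 ± 0.69), cluster27 sense (-5.79 ± 0.56) and cluster2 sense (-4.44 ± 0.55) were lower as well.

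The rows with the smallest p-values included cluster96 antisense, with 0.187, 0.434 and 0.342 CPM in WT sperm and 47.5, 33.6 and 12.5 CPM in T1, T2 and T3. cluster61 sense had 1.68, 1.74 and 1.25 CPM in WT sperm and 225, 143 and 52.3 CPM in testis (-6.25 ± 0.54). cluster41 sense had 1.68, 1.30 and 0.798 CPM in WT sperm and 205, 122 and 37.4 CPM in testis (-6.29 ± 0.56). Log2 fold changes of cluster30 antisense, cluster74 sense, cluster73 sense, cluster25 antisense and cluster27 antisense were -5.28, -5.70, -4.88, -5.00 and -6.47. Sparse rows show the depth limit. cluster11 sense had 3 counts in the WT sperm libraries together and 751 in testis, a pooled ratio of sperm over testis CPM of 0.00316 (95% counting interval 0.00065 to 0.00927). cluster112 sense had 3 and 239 counts, a ratio of 0.00992 (0.00203 to 0.0294). Intervals of this kind cover counting error only.

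The other 17 rows did not pass the test. cluster22 sense measured 78.5, 84.2 and 94.5 CPM in WT sperm and 74.8, 89.96 and 171 CPM in T1, T2 and T3 (-0.29 ± 0.42, adjusted p = 0.574). cluster93 antisense had 11.2, 79.2 and 68.0 CPM in WT sperm and 126, 50.8 and 57.9 CPM in testis (-0.44 ± 0.64, adjusted p = 0.57). cluster39 antisense gave 0.57 ± 0.41 (adjusted p = 0.245). The row called higher was cluster79 antisense, with 71.4, 66.0 and 88.7 CPM in WT sperm and 30.2, 31.4 and 39.8 CPM in testis, a log2 fold change of 1.17 ± 0.42 (adjusted p = 0.0319). Sperm and testis did not overlap for it, but the call was lost with DESeq2 (adjusted p = 0.192) and without T1, T2, WT replicate 2 or WT replicate 3 (adjusted p = 0.0737 to 0.145). cluster92 sense was lower in sperm, with 24790, 9458 and 12188 CPM in WT sperm and 59067, 59199 and 81664 CPM in testis (-2.09 ± 0.65, adjusted p = 0.0172).

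Some marker lists moved with this comparison and others overlapped. The 14 testis germline miRNAs summed to 5.54 to 31.2 CPM in WT sperm and 714 to 2140 CPM in testis. Accessory gland and seminal fluid transcripts summed to 105 to 384 CPM in WT sperm and 0.789 to 1.93 CPM in testis, where 9 to 12 of 13 found members were at 0. Late spermatid transcripts summed to 8.5 to 19.4 CPM in WT sperm and 347 to 471 CPM in testis, and flam and tj rows to 18.4 to 28.5 and 580 to 3460 CPM. The 7 somatic miRNAs overlapped, at 4090 to 6240 CPM in WT sperm and 4700 to 9290 CPM in testis. So did mir-1, at 311 to 915 and 841 to 2710 CPM. The part of these in the cluster values was not tested.

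Within testis the clusters formed a gradient. Of 152 cluster rows with at least 20 counts over T1, T2 and T3, 143 (94.1%) had a CPM at least 2-fold lower in T3 than in T1, against 28.7% of all 9284 such rows. None was at least 2-fold higher, against 14.0% of all rows. In 140 of the 152 rows the order was T1 over T2 over T3. The median ratio of T3 to T1 was 0.182 for cluster rows and 0.761 for all rows. With 1 library per group there is no test, and the counting intervals below say nothing of the spread between testes.

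cluster9 sense had 17611, 11951 and 5376 counts, or 4630, 3274 and 867 CPM of all assigned counts, in T1, T2 and T3 (ratio of T3 to T1 0.187, 95% counting interval 0.182 to 0.193). Its antisense row kept nearly the same ratio, 0.176. The other 9 rows did not drop 2-fold. cluster22 sense measured 72.8, 91.8 and 128 CPM (ratio 1.76, 1.53 to 2.02) and cluster79 antisense 29.5, 32.1 and 29.8 CPM (ratio 1.013, 0.797 to 1.29). cluster92 sense measured 57510, 60400 and 61200 CPM (ratio 1.06). cluster39 antisense had a ratio of 0.613 (0.455 to 0.826). Other rows above a ratio of 0.5 were cluster79 sense, cluster48 antisense, cluster45 antisense, cluster33 sense and cluster142 sense, each with 80 counts or fewer. Testis germline miRNAs summed to 1680, 2140 and 714 CPM in T1, T2 and T3, and late spermatid transcripts to 347, 471 and 361 CPM. The flam and tj rows, themselves piRNA sources of gonadal soma, summed to 3460, 1850 and 580 CPM. The 7 somatic miRNAs summed to 6020, 9290 and 4700 CPM. These lists did not move alike, and their part in the cluster values was not tested.

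**Figure D3:**
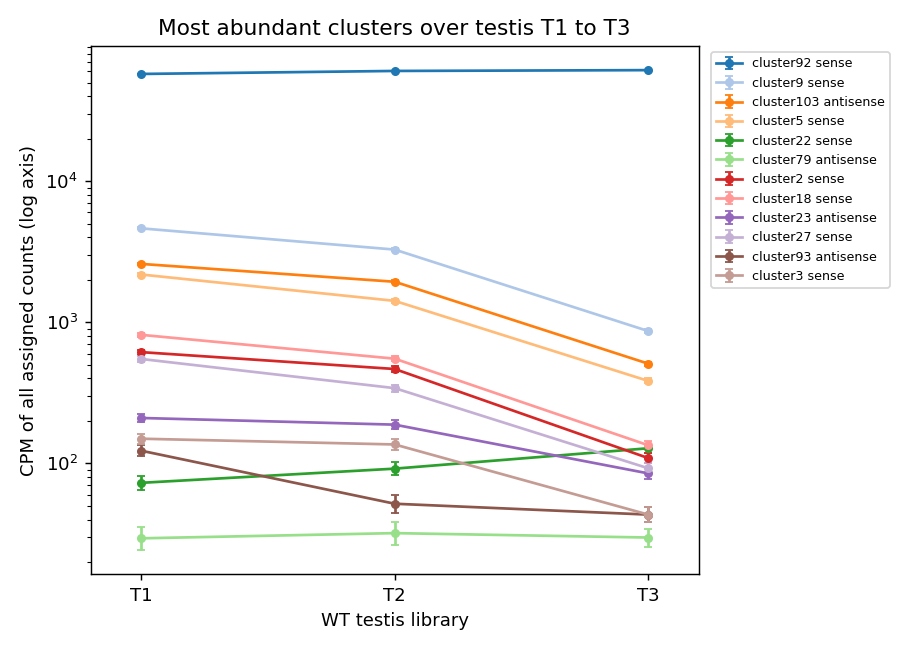
CPM of all assigned counts (log axis) in the WT testis libraries T1, T2 and T3 for the more abundant strand of the 12 clusters with the largest mean share; bars are 95% Poisson intervals, which cover counting error only. cluster9 sense falls over 4630, 3274 and 867 CPM, while cluster92 sense stays at 57510 to 61200 CPM and cluster22 sense climbs over 72.8, 91.8 and 128 CPM.

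Strand use also differed between sperm and testis. Summed without cluster92, the clusters were 51.0%, 47.4% and 46.5% sense in WT sperm and 68.0%, 67.3% and 66.0% sense in T1, T2 and T3. Of 82 clusters with at least 20 counts over the testis libraries, 64 had most counts on the sense strand, 15 were at least 90% sense and 2 at most 10% sense. WT sperm had 35 of 56 clusters with most counts sense, 11 at least 90% and 7 at most 10%.

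The limma test on the log2 strand ratio covered 38 clusters and called 15, against 32.2% of all features, so the share of calls is near the background. The direction differed from the background: 12 clusters were lower (less sense in sperm) and 3 higher, while 4.96% of all features were called lower and 27.3% higher. cluster39 was 5.60%, 9.52% and 6.61% sense in WT sperm and 75.8%, 77.0% and 49.2% in T1, T2 and T3 (log2 ratio difference -4.77 ± 0.79, adjusted p = 6.32e-08). cluster28 was 27.8%, 12.2% and 13.8% sense in WT sperm and 76.4%, 71.2% and 70.1% in testis (-3.62 ± 0.78). cluster20 was 23.0%, 41.2% and 25.9% sense in WT sperm and 80.4%, 78.8% and 79.9% in testis (-3.20 ± 0.80). In none of these did sperm and testis overlap. cluster100, cluster93, cluster33, cluster23, cluster35, cluster45, cluster131, cluster138 and cluster55 were lower too.

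In the opposite direction, cluster40 was 91.8%, 100% and 95.1% sense in WT sperm and 51.3%, 58.9% and 72.2% in testis (4.07 ± 0.78, adjusted p = 3.76e-06). cluster141 was 90.6%, 98.4% and 95.5% sense in WT sperm and 78.2%, 79.1% and 80.5% in testis (2.35 ± 0.79). cluster22, at 99.7% to 100% sense in WT sperm and 97.9% to 99.1% in testis, was called too (means 99.9% in WT sperm and 98.6% in testis). Its ratio rests on 0, 1 and 0 antisense counts in WT sperm and 6, 4 and 7 in testis, so its size depends on the pseudocount. Without WT replicate 1 the number of clusters called fell to 8, and with each library centred on its median none of the 3 higher calls remained among 14.

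Majority strands switched in part of the clusters. Among 25 clusters with at least 20 counts in every WT sperm and testis library, 5 had most counts sense in all testis libraries and antisense in all WT sperm libraries: cluster20, cluster28, cluster35, cluster131 and cluster135. None switched the other way. The share of all features that switch by this rule was not counted, so these counts do not show a trait particular to the clusters. cluster135 was 37.8%, 23.9% and 30.0% sense in WT sperm and 61.4%, 53.1% and 61.7% in testis. PIWI IP gave the same switch in these 5 and in cluster36, cluster45, cluster55, cluster89 and cluster90, 10 of 44 clusters in all, and the opposite switch in cluster13 and cluster37. The switch was not particular to WT sperm and PIWI IP. In cluster28, cluster35, cluster131 and cluster135 it also appeared in seminal vesicle total RNA (4 of 28 clusters) and in piwi sperm (4 of 31). Aub sperm gave it in these 4, cluster20 and cluster45 (6 of 30), and the opposite switch in cluster13. cluster55 was 10.3%, 7.27%, 9.81% and 7.38% sense in PIWI IP and 88.0%, 77.8% and 87.5% in T1, T2 and T3. cluster13 was 76.3%, 72.3%, 74.4% and 84.3% sense in PIWI IP and 30.8%, 25.8% and 23.7% in testis. Seminal vesicle and testis were counted on different feature lists, so levels were not compared between them.

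**Figure D4:**
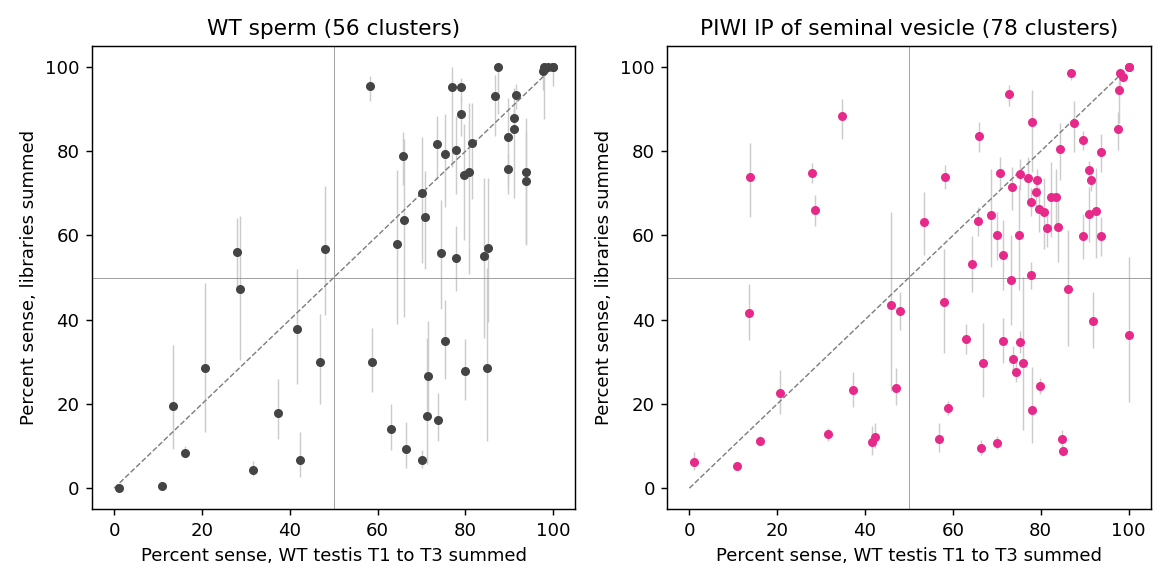
Percent of a cluster's counts in the sense table in WT sperm (left, 56 clusters) and in PIWI IP (right, 78 clusters), each with libraries summed, against the 3 WT testis libraries summed; each point is a cluster with at least 20 counts on both axes, bars are 95% exact binomial intervals, and the dashed line marks equal shares. Clusters right of 50% and below 50% are mostly sense in testis and mostly antisense in the other sample, such as cluster55 at 85.1% in testis and 8.79% in PIWI IP.

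The last comparison asks which cluster RNAs were enriched with Piwi in seminal vesicle. Of 139 tested cluster rows, 37 (26.6%) were called, 35 higher and 2 lower in PIWI IP than in total RNA. Over all 18666 rows, 18.4% were called, and 8.41% were called higher and 9.99% lower. The median log2 fold change was 1.17 for cluster rows and 0.08 for all rows. The 35 rows came from 30 clusters, with 5 clusters called on both strands, and comprised 16 of 73 sense rows and 19 of 66 antisense rows. Beside them, 2 of the 4 flam and 42AB rows were higher, as were 185 of 380 rows of other complex repeats, and 0 of 26 Su(Ste) rows.

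cluster55 antisense measured 24.3, 23.8, 26.0 and 27.7 scaled CPM in PIWI IP and 1.86 and 2.27 CPM in total RNA (log2 fold change 3.61 ± 0.29, edgeR adjusted p = 2.16e-06). cluster20 antisense measured 21.1, 20.4, 23.8 and 17.9 CPM in PIWI IP and 3.16 and 3.61 CPM in total RNA (2.62 ± 0.28). cluster135 antisense measured 21.5, 21.9, 25.5 and 32.0 CPM in PIWI IP and 4.64 and 6.29 CPM in total RNA (2.19 ± 0.29). In each the PIWI IP libraries stood above both total RNA libraries. cluster89 antisense (3.98 ± 0.43), cluster36 antisense (3.65 ± 0.39), cluster37 sense (2.98 ± 0.42), cluster81 sense (2.97 ± 0.43), cluster134 sense (2.82 ± 0.42), cluster13 sense (2.37 ± 0.34) and cluster23 antisense (2.24 ± 0.31) followed by p-value. Total RNA held 8 to 72 counts for these 10 rows, so the size of the fold is limited by its depth.

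Of the 10 clusters that were mostly sense in testis and mostly antisense in PIWI IP, 7 had their antisense row higher in PIWI IP than in total RNA and 2 also their sense row. Of all tested antisense rows of clusters, 19 of 66 were higher, and of all rows 8.41%. cluster13 and cluster37, mostly sense in PIWI IP, both had their sense row higher. These clusters were picked by their strand balance in the same PIWI IP libraries, so the counts are a description and carry no independent evidence.

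cluster22 sense and cluster79 antisense, the leading clusters of sperm, were lower in PIWI IP. cluster22 sense measured 37.8, 38.2, 42.5 and 32.4 CPM in PIWI IP and 111 and 125 CPM in total RNA (-1.65 ± 0.22, adjusted p = 0.000124). cluster79 antisense measured 63.6, 48.7, 42.5 and 54.9 CPM in PIWI IP and 165 and 158 CPM in total RNA (-1.62 ± 0.23, adjusted p = 0.000196). The groups did not overlap. cluster92 sense averaged 7072 ± 6286 CPM in PIWI IP (SD, n = 4) and 40577 ± 8510 CPM in total RNA (SD, n = 2) and did not pass (-2.52 ± 0.79, adjusted p = 0.103). cluster93 antisense gave 0.06 ± 0.36 (adjusted p = 0.932), and the groups overlapped.

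These directions depend on the scaling. TMM factors were 1.02 to 2.10 for PIWI IP and 0.357 and 0.428 for total RNA, and total counts alone would shift the median of all rows to 2.08, with 128 of 139 cluster rows higher and 0 lower, beside 11624 of all 18666 rows higher and 173 lower, and with cluster22 sense and cluster79 antisense at 0.42 and 0.42. Relative to that median both rows remain low, and absolute amounts were not measured. Without total RNA replicate 1 or 2 the median log2 fold change was 1.32 or 1.15 for cluster rows and 0.24 or 0.26 for all rows. Fewer cluster rows, and fewer of all rows, were called there, where the single library left is assumed to vary as PIWI IP does. rRNA took 62.6% to 79.1% of counts in PIWI IP and 85.7% to 87.3% in total RNA, and mir-1, abundant in muscle, 21700 to 50400 CPM in PIWI IP and 12400 and 21300 CPM in total RNA. Marker sums, mir-1 among them, were scaled by total counts alone, under which the median log2 fold change of all rows was 2.08. On that scale the other marker lists were higher in PIWI IP without overlap, which need not exceed the shift of all rows. The 14 testis germline miRNAs summed to 182 to 440 CPM in PIWI IP and 64.0 to 72.9 CPM in total RNA, and 6 late spermatid transcripts to 43.5 to 98.5 CPM in PIWI IP and 8.75 to 12.5 CPM in total RNA. The 13 accessory gland and seminal fluid transcripts summed to 175 to 295 CPM in PIWI IP and 32.3 to 38.4 CPM in total RNA. The 7 somatic miRNAs summed to 39100 to 85700 CPM in PIWI IP and 22900 to 26400 CPM in total RNA, and flam and tj rows to 42.6 to 72.2 CPM in PIWI IP and 8.18 to 8.22 CPM in total RNA. At most 1 member of any of these lists was at 0 in a library, and the part of all these in the cluster values was not tested.

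**Figure D5:**
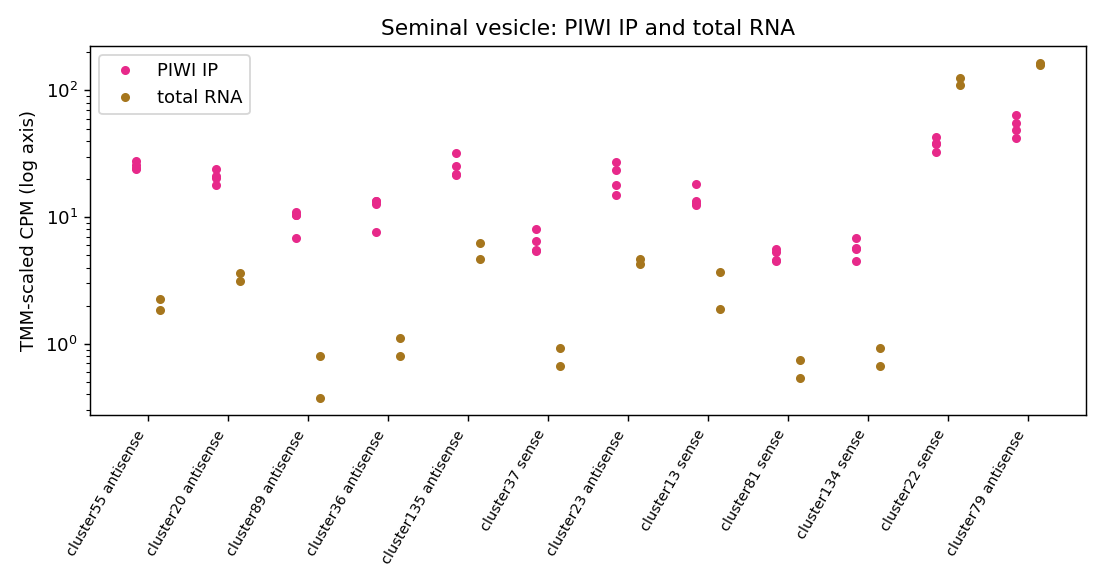
TMM-scaled CPM (log axis) of the 10 cluster rows higher in PIWI IP with the smallest p-values and of the 2 rows that were lower; points are the 4 PIWI IP and 2 total RNA libraries of seminal vesicle. cluster55 antisense lies at 23.8 to 27.7 CPM in PIWI IP and at 1.86 and 2.27 in total RNA, and cluster22 sense at 32.4 to 42.5 CPM in PIWI IP and at 111 and 125 in total RNA.

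The strand ratio test between PIWI IP and total RNA called 1 of 39 clusters, against 1.26% of all features (0.856% higher, 0.405% lower). It was cluster92 (-4.69 ± 1.14, adjusted p = 0.00792), whose antisense counts were 3, 16, 12 and 0 in PIWI IP and 0 and 0 in total RNA, beside 14365 to 301325 counts in PIWI IP and 250913 and 258408 in total RNA on both strands. Its value depends on the pseudocount, and with a pseudocount of 5 it did not pass (adjusted p = 0.154). Below the threshold lay cluster55, which was 8.68% ± 1.58 sense in PIWI IP and 41.3% ± 5.42 in total RNA (-2.91 ± 1.05, adjusted p = 0.143), and cluster36, which was 29.4% ± 4.31 sense in PIWI IP and 73.3% ± 9.43 in total RNA (-2.69 ± 1.06, adjusted p = 0.178).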

How the data were processed

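Sperm, testis and seminal vesicle libraries entered the analysis; the 12 embryo libraries were not used here. Library depths stand in the results. The authors deposited counts per feature, in a sense table of 46612 rows and an antisense table of 37771 rows. Per the submitters' processing notes, the builds were dm6 and BDGP6, and the tools included featureCounts, Subread 2.0.0, SAMtools 1.8, Bowtie 1.2.3, cutadapt and Trim Galore 0.5.0, with no roles stated. How reads with several positions were counted is not given in the sources used here; cluster reads are repetitive, so counts of single clusters are uncertain. Per the labels' protocols, RNA was extracted at different sites, not given per sample; site and group cannot be told apart.

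Columns were matched to samples by name; 3 columns in each table matched none and were not used. Sense and antisense rows entered 1 fit over all rows with edgeR 4.0.16 under R 4.3.3. Low rows were removed by filterByExpr, libraries scaled by TMM, and the quasi-likelihood test run with robust settings; p-values were adjusted by Benjamini-Hochberg at 0.05, and standard errors are the absolute log2 fold change over the square root of F. The sperm fit held all 3 genotypes. Strand ratios were fitted with limma 3.58.1 in features with at least 10 counts on both strands together in every library. Shares, marker sums and CPM of the testis gradient used total assigned counts without TMM factors. Intervals are 95% exact (Clopper-Pearson or Poisson); no molecular identifiers are stated. No library was a copy of another. Alternatives were DESeq2 1.42.0, other scaling, no filter, rRNA left out, each library left out and a replicate block. Both test scripts were tested on simulated data. Named clusters were the 12 with the largest mean share over sperm and testis, the 8 over seminal vesicle, and per comparison up to 10 called rows per direction by p, or 5 for strand ratios; rows near the threshold, rows outside the testis gradient and clusters that switched strand were named after their values were seen. Members and lists were chosen with earlier results of these data known.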

Additional observations from a re-analysis of the deposited data

Results flagged for a closer look

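Of 24 values tested in the 4 PIWI IP libraries, 3 had a library far from the others; chance flags about 1 in 20. All 3 were PIWI IP replicate 4, the library with the fewest counts (2363275). It was the lowest for cluster89 antisense (6.84 CPM in replicate 4, and 10.4 to 10.98 CPM in the others) and for cluster36 antisense (7.64 CPM, and 12.7 to 13.5 CPM in the others). For cluster13 sense it was the highest (18.3 CPM, and 12.6 to 13.4 CPM in the others). In all 3 rows replicate 4 still lay above both total RNA libraries.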

How the results depend on the processing

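Repeats were run for the called rows with the smallest p-values, up to 10 per direction, or 5 for strand ratios. Of these 364 repeats, 324 kept direction and call, 38 lost the call and 2 reversed. The cause of the losses and reversals was not tested. Where more rows were called, the weaker calls are not covered by these repeats. For piwi against WT sperm (1 row called), DESeq2 called 2, total counts 2 and no filter 3, and leaving out a library gave 0 to 2. Over all rows DESeq2 called 184, total counts 102 and no filter 367. For aub against WT sperm (1), DESeq2 called 3, total counts 0, no filter 4 and the 2 groups alone 3, and leaving out a library gave 0 to 1. Over all rows DESeq2 called 347, total counts 166, no filter 648 and the 2 groups alone 240. For aub against piwi sperm (0), DESeq2 called 2, no filter 3 and the 2 groups alone 2. For PIWI IP against total RNA (37), total counts called 128, and leaving out a library gave 17 to 48; total counts reversed cluster22 sense (0.42) and cluster79 antisense (0.42). Total counts shifted the median of all rows to 0.18 for aub against WT sperm, 0.20 for aub against piwi sperm and 0.50 for WT sperm against testis. For WT sperm against testis (138), the alternatives gave 105 to 139.

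Strand ratio calls for aub against WT sperm (1) were 0 with a minimum of 50 counts, 0 when centred, and 0 to 1 without a library. For aub against piwi sperm (0) a pseudocount of 5 gave 1. For PIWI IP against total RNA (1) there were 0 with a pseudocount of 5, 0 with a minimum of 50, 0 when centred, and 0 to 8 without a library, 8 of them without PIWI IP replicate 4. For WT sperm against testis (15), a minimum of 50 gave 5, and leaving out a library 8 to 16.

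Shares depend on the denominator. cluster79 was 0.597% of cluster counts in WT sperm, 13.6% without cluster92 and 93.4 CPM; cluster9 in T1 was 6.65%, 26.4% and 5116 CPM; cluster79 in PIWI IP was 1.03%, 8.58% and 94.8 CPM.

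Whether equal replicate numbers pair the libraries was not settled. Correlations of same-numbered libraries ranged from -0.297 to 0.289 in sperm, beside -0.476 to 0.371 for different numbers. In seminal vesicle they were 0.0386 and 0.493 for equal numbers. A replicate block raised the calls over all rows from 97 to 120 for piwi against WT sperm. For aub against WT sperm they rose from 199 to 312, and for aub against piwi sperm from 56 to 86. With the replicate block, 3 rows were called for piwi and 4 for aub against WT sperm, 1 for aub against piwi sperm and 52 for PIWI IP; strand ratio calls were 0, 1, 0 and 0 in the same comparisons. No paired analysis was possible because testis columns carry no replicate number for WT sperm against testis. Depth limits what can be seen: 42 clusters reached 20 counts in seminal vesicle total RNA and 56 in WT sperm.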
